A study of Homo sapiens with 12 samples.

Results

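Genes of DNA methylation were followed in HL60 cells, in which the combination of ATRA and CDK4/6i left the genes of methylation maintenance far below their level in non-treated cells while DNMT3A and TET2 were higher. The 10 genes were DNMT1, UHRF1, HELLS, CDCA7, CDCA7L, DNMT3A, DNMT3B, TET1, TET2 and TET3, of 59251 genes in the count table, and all 10 were among the 13318 genes that passed the expression filter. These genes were chosen by their raw counts in the same 4 groups, as a set in which maintenance genes and TET genes contrast. Their values are therefore a description. Where one of them is said to be past the threshold, this places it among all genes by the same rule and is not evidence, and no p is given.

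RNA-Seq was performed on HL60, a human myeloid leukemia cell line either non-treated or exposed for 48 h to 1 µM all-trans retinoic acid (ATRA), to palbociclib at 1 µM as a CDK4/6 inhibitor (CDK4/6i), or to both together (CDK4/6i+ATRA). The design addressed how either drug and their combination change gene expression. Each group held 3 libraries, labelled as biological replicates, and all came from a single cell line at a single time. The libraries held 15392648 to 16935515 counts in non-treated cells, 15238994 to 17010052 under ATRA, 15576806 to 18679544 under CDK4/6i and 12230923 to 14415276 under CDK4/6i+ATRA. RNA was measured, and DNA methylation itself was not analysed here. In bulk RNA, fewer cells of a type and less RNA per cell cannot be told apart.

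DNA methylation in mammals is carried mainly by cytosines that precede guanine. After replication the new strand lacks the mark, UHRF1 recognizes the hemimethylated site and DNMT1 restores it, while the chromatin remodeler HELLS, recruited by the zinc finger protein CDCA7, opens nucleosomal DNA for this maintenance step. DNMT3A and DNMT3B place methyl groups on unmethylated sites, and the TET dioxygenases oxidize 5-methylcytosine so that the mark can be lost. DNMT3A and TET2 are among the genes most often mutated in myeloid leukemia.

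Levels are TMM-normalized CPM from edgeR, the counts of a gene scaled to a common library total. A gene was past the threshold at an adjusted p under 0.05 in edgeR's quasi-likelihood fit of the 4 groups. Log2 fold changes are given with an approximate standard error (SE), the absolute log2 fold change divided by the square root of its F statistic. This SE was not fitted directly, and for large changes with few counts it can lie below the error of counting alone. Fold values without SE are ratios of mean CPM.

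The non-treated libraries carried markers of a myeloid line, and several of these changed with treatment. MPO, the peroxidase of azurophil granules and the most abundant of 8 markers of the line, stood at 6517 ± 168 CPM in the controls (SD, n = 3), 293 ± 27.4 under ATRA, 3469 ± 66.4 under CDK4/6i and 27.96 ± 5.15 under CDK4/6i+ATRA. From the controls to CDK4/6i+ATRA, MYC went from 1292 to 84.4 CPM, CEBPA from 377 to 76.4, SPI1 from 302 to 855 and CD33 from 93.9 to 99.8. ELANE, AZU1 and PRTN3, which mark the same granules, were listed at 0 in every library. These 3 genes are among 4379 that the table lists both on a chromosome and on an alternate contig, of which 2886 (65.9%) were at 0, as were 51.5% of the other genes, so their level was not read from the table. None of the 10 genes is listed on such a contig. Of 10 markers of T, B, erythroid, epithelial, fibroblast and endothelial cells, 6 had 3 counts or fewer in every library, including HBB and EPCAM, and PECAM1, which myeloid cells also express, was the most abundant at 24.2 ± 0.901 CPM (SD, n = 3) without drugs. CYBB, a subunit of the phagocyte oxidase, was at 131 ± 2.98 CPM in non-treated, 2079 ± 36.5 in ATRA-treated, 448 ± 11.2 in CDK4/6i-treated and 3017 ± 83.7 in CDK4/6i+ATRA-treated cells (SD, n = 3).

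DNMT1, the maintenance methyltransferase (chr19:10133346-10194953, minus strand, hg38), was at 357, 360.4 and 376 CPM in the non-treated libraries, 293, 307 and 306 under ATRA, 112.2, 118 and 125 under CDK4/6i and 72.2, 60.4 and 59.6 under CDK4/6i+ATRA. The 4 groups did not overlap, and their order was the same in every library, with non-treated cells highest and CDK4/6i+ATRA-treated cells lowest. Mean DNMT1 was 1.21-fold lower with ATRA, 3.08-fold lower with CDK4/6i and 5.68-fold lower with both drugs.

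UHRF1, the reader of hemimethylated DNA (chr19:4903080-4962154, plus strand), was at 221, 231 and 221 CPM in non-treated cells, 210.3, 214 and 215 under ATRA, 26.5, 26.7 and 31.4 under CDK4/6i and 13.1, 12.9 and 11.2 under CDK4/6i+ATRA. ATRA alone left UHRF1 close to the non-treated level, with a log2 fold change of -0.07 ± 0.0397 (SE) that did not pass the threshold, whereas both groups with CDK4/6i were low in every library. With both drugs UHRF1 was 18.0-fold below non-treated cells.

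HELLS, the SNF2-family remodeler (chr10:94545788-94613905, plus strand), was at 62.9, 65.2 and 66.3 CPM in non-treated cells, 58.5, 55.3 and 61.4 under ATRA, 3.53, 4.28 and 4.39 under CDK4/6i and 1.19, 0.713 and 0.909 under CDK4/6i+ATRA. The combination left 13, 8 and 11 counts of HELLS per library, against 1039 to 1177 in non-treated cells. HELLS followed the order of UHRF1, with ATRA alone near the controls and CDK4/6i alone 15.9-fold below them.

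CDCA7, the partner that brings HELLS to chromatin (chr2:173354872-173368997, plus strand), was at 209, 209.6 and 198 CPM in non-treated cells, 77.0, 81.3 and 82.6 under ATRA, 49.3, 51.8 and 51.7 under CDK4/6i and 0.825, 1.25 and 0.578 under CDK4/6i+ATRA. Unlike UHRF1 and HELLS, CDCA7 was already low in every ATRA library, at 39.1% of the non-treated mean. With both drugs it fell to 9, 14 and 7 counts per library, which is 0.43% of the non-treated CPM and 232-fold lower. Its log2 fold change between CDK4/6i+ATRA and the controls, -7.86 ± 0.101 (SE), was the 10th lowest of 13318 genes. At 30 counts over the 3 CDK4/6i+ATRA libraries, counting error alone exceeds that SE.

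CDCA7L, a paralogue of CDCA7 that is known as a MYC partner (chr7:21900899-21945899, minus strand), was at 124, 133 and 122 CPM in non-treated cells, 67.9, 68.7 and 69.1 under ATRA, 58.0, 55.2 and 61.3 under CDK4/6i and 11.7, 14.3 and 12.8 under CDK4/6i+ATRA. It had the same order of groups as CDCA7 and no overlap between them, over a smaller range, at 10.2% of the non-treated mean with both drugs. Its exons share 833 bases with DNAH11 on the opposite strand, which held 635 counts over all libraries against 13405 for CDCA7L.

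The promoters of the maintenance genes are shown because these genes were low together in both groups with CDK4/6i, and CDCA7L is shown beside its paralogue. RefSeq windows of GRCh38.p14, from 250 bases before to 50 bases after the start, were found for all 10 genes, 21 windows in all. Capitals mark every match on either strand to the E2F element in the forms TTTCGCGC, TTTGGCGC, TTTCCCGC and TTTGCCGC, to the cell cycle homology region TTTGAA and to the CCAAT box CCAAT. The windows are chr19:10194904-10195203 (minus strand) for DNMT1, chr19:4909251-4909550 (plus) for UHRF1, chr10:94545538-94545837 (plus) for HELLS, chr2:173354622-173354921 (plus) for CDCA7 and chr7:21945850-21946149 (minus) for CDCA7L.
DNMT1: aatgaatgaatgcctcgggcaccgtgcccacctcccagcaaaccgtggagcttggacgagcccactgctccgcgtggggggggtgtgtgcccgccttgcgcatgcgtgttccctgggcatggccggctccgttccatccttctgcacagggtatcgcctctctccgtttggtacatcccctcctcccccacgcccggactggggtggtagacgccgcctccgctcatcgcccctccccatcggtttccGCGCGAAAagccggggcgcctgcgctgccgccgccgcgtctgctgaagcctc
UHRF1: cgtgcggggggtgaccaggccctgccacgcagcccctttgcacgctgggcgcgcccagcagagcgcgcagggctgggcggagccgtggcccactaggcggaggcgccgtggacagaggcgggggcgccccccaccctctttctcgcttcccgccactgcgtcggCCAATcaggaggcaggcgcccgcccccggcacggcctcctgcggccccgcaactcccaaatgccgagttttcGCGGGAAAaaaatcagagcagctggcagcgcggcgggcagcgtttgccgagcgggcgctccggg
HELLS: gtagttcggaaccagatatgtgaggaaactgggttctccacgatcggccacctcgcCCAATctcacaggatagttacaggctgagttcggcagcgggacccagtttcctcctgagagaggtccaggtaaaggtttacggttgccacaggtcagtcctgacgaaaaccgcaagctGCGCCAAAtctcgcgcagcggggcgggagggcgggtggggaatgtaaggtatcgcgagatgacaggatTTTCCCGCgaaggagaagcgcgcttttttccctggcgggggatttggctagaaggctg
CDCA7: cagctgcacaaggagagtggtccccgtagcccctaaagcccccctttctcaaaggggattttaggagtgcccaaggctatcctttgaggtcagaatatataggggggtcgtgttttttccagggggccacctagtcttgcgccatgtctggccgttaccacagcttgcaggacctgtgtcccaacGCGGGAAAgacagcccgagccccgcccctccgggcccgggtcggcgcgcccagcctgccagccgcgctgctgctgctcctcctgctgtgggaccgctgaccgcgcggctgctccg
CDCA7L: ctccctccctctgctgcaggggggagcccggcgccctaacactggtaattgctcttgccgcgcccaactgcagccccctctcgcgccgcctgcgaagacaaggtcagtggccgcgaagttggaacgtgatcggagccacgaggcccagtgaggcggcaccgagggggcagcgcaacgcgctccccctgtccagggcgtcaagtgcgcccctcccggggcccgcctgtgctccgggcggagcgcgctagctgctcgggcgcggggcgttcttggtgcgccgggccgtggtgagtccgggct

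Each of the 4 maintenance genes, DNMT1, UHRF1, HELLS and CDCA7, held at least 1 E2F match, in 5 of their 6 windows, and none of the 15 windows of the other 6 genes did. Of these other genes DNMT3B, CDCA7L and TET1 were also low in both groups with CDK4/6i. The DNMT3B window, chr20:32779602-32779901, lies inside its listed locus and not at its listed start, 32762385. The same holds for every UHRF1 window, the first beginning at 4909251 against a listed start of 4903080. It also holds for the TET3 windows, the first beginning at 73984660 against 73983631. Any of the 4 E2F forms was present in 3.31% of all 35116 promoter windows. In HELLS the matches began 76 and 8 bases before the start, in CDCA7 65 bases, in the printed UHRF1 window 14 bases, and in DNMT1 2 bases before it, so that the DNMT1 match spans the start. TTTGAA was found in 2 of the 21 windows, of DNMT3A and TET2, against 15.2% of all windows, and CCAAT in 7 of the 21, against 34.6%. No match overlapped another in the printed windows. The CDCA7L window, with no match, held 34 CG dinucleotides, more than 84.4% of all windows. A match describes the letters of a window and does not show that a factor bound there.

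DNMT3A, a de novo methyltransferase (chr2:25227874-25342590, minus strand), moved the other way. It was at 9.62, 8.78 and 8.17 CPM in non-treated cells, 39.9, 41.0 and 38.2 under ATRA, 13.2, 16.3 and 16.4 under CDK4/6i and 110.2, 97.7 and 95.5 under CDK4/6i+ATRA. Every treated library lay above every non-treated one, the ATRA libraries more so than those of CDK4/6i, and the combination was highest at 11.4-fold. DNMT3B, the other de novo enzyme (chr20:32762385-32809356, plus strand), was low throughout, with 6.27 to 9.97 CPM in non-treated cells, 8.22 to 10.99 with ATRA, 1.97 to 3.30 under CDK4/6i and 0.825 to 1.43 with both drugs. The non-treated and ATRA libraries of DNMT3B overlapped, whereas both groups with CDK4/6i lay below them. DNMT3B varied among its non-treated libraries (8.28 ± 1.87 CPM, SD, n = 3) and had 9 to 17 counts per library with CDK4/6i+ATRA.

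The 3 TET genes had 3 different patterns. TET1 (chr10:68560337-68694487, plus strand) was at 15.9, 16.4 and 16.0 CPM in non-treated cells, 7.95, 7.75 and 8.34 under ATRA, 10.8, 11.4 and 10.6 under CDK4/6i and 1.56, 1.69 and 1.40 under CDK4/6i+ATRA. It was thus low in every treated library, lower with ATRA than with CDK4/6i, and lowest with both. TET2 (chr4:105145875-105279803, plus strand) was at 49.4, 49.2 and 59.5 CPM in non-treated cells, 78.5, 80.0 and 88.6 under ATRA, 64.8, 67.0 and 67.6 under CDK4/6i and 138, 137 and 129 under CDK4/6i+ATRA. Its groups did not overlap and stood in the reverse order of TET1. TET3 (chr2:73983631-74135498, plus strand) stayed within 117 to 154 CPM in all 12 libraries. Its non-treated, ATRA and CDK4/6i libraries overlapped, and the 3 CDK4/6i+ATRA libraries, at 122, 117 and 123 CPM, were below all others. TET3 shares 99 exon bases with BOLA3 on the opposite strand, and TET2 shares 298 with LOC124900868.

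**Figure D1:**
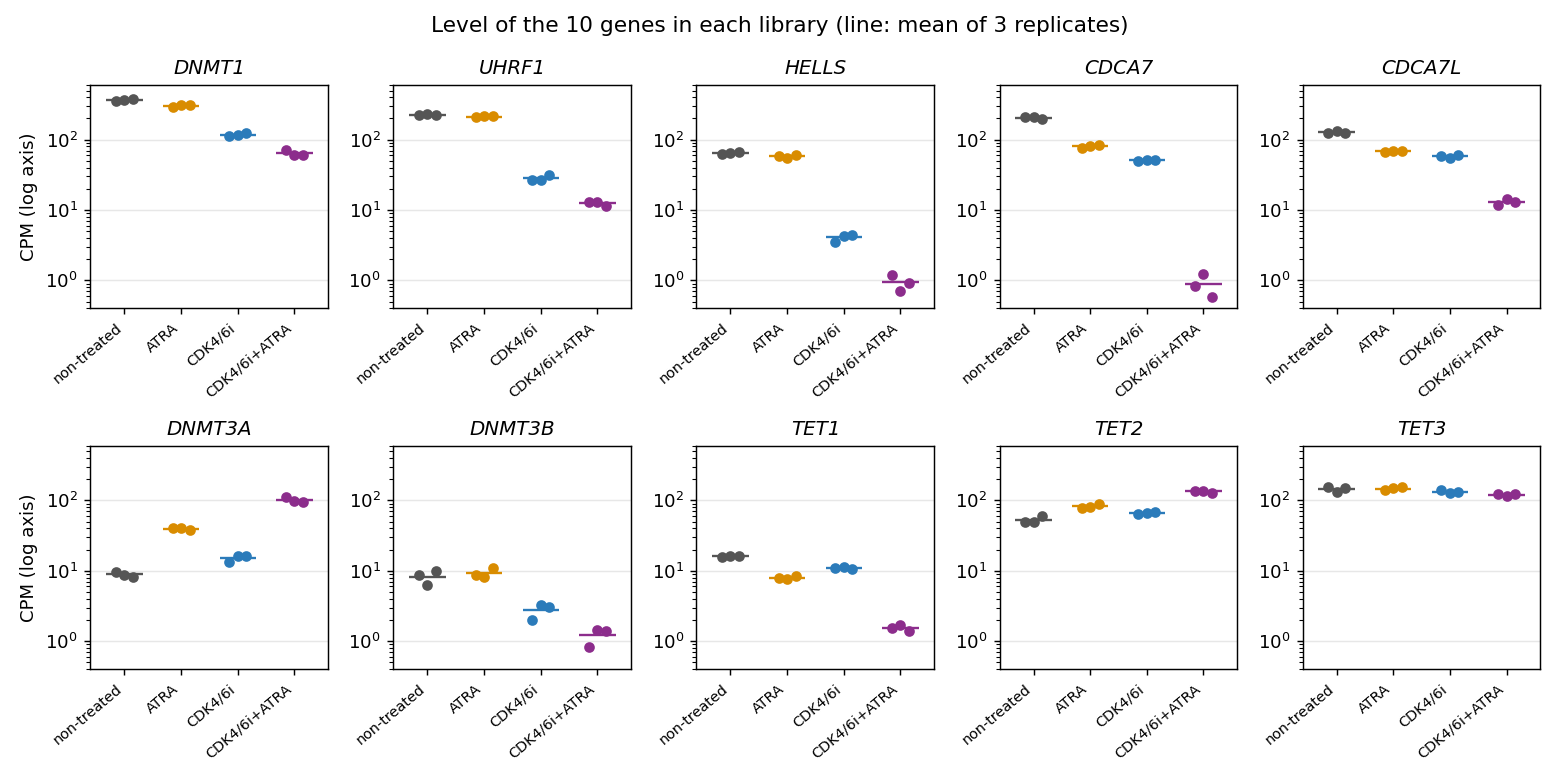
TMM-normalized CPM of the 10 genes on a log axis, with a point for each of 3 libraries per group and a line at the group mean. HELLS and CDCA7 reach 1.25 CPM at most with CDK4/6i+ATRA, DNMT3A and TET2 are highest there, and TET3 stays within 117 to 154 CPM.

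Levels of different genes were compared per length, as TPM (counts per base of the listed length, scaled to a common total) from the deposited counts and gene lengths. In non-treated cells DNMT1 stood first at 180.0 ± 6.47 TPM, with CDCA7 at 175 ± 4.80, which does not differ from it beyond their spread, then UHRF1 at 115 ± 3.37 and CDCA7L at 113 ± 5.53, also within their spread, and TET3 at 27.8 ± 1.97 (SD, n = 3). TET2 at 9.03 ± 1.07 TPM and HELLS at 8.90 ± 0.320 came next and did not differ beyond their spread, followed by DNMT3B at 4.67 ± 1.06 and TET1 at 3.91 ± 0.0861, also within their spread, and DNMT3A was last at 1.46 ± 0.107. These places depend on the listed lengths. With MANE Select lengths, a choice made after seeing the data, CDCA7 came first in non-treated cells at 193 ± 5.29, before DNMT1 at 180.3 ± 6.48, UHRF1 at 150.2 ± 4.39 and CDCA7L at 115 ± 5.63 (SD, n = 3). HELLS, listed with 18997 bases and with 3128 in its MANE Select transcript, was then 28.04% of CDCA7 in non-treated cells in place of 5.08%. With CDK4/6i+ATRA the order had changed. By listed lengths DNMT1 at 23.7 ± 3.94 TPM was still first, TET2 at 17.2 ± 1.46 and TET3 at 17.1 ± 1.04 followed within their spread, and DNMT3A at 12.4 ± 1.67 had moved from rank 10 to rank 4. By MANE Select lengths TET2 was first at 27.3 ± 2.32, DNMT1 followed at 23.7 ± 3.95, DNMT3A at 20.9 ± 2.81 and TET3 at 19.5 ± 1.19 (SD, n = 3), each within the spread of the next.

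Within the families the composition shifted. DNMT1 made up 96.7% ± 0.491 of the summed TPM of the 3 DNMT genes in non-treated cells, 92.7% ± 0.314 under ATRA, 93.5% ± 0.825 under CDK4/6i and 64.6% ± 1.02 under CDK4/6i+ATRA, while DNMT3A went from 0.785% ± 0.0847 to 34.0% ± 0.529 (SD, n = 3). Of the de novo pair alone, DNMT3A held 24.3% ± 4.86 of the TPM in non-treated cells and 96.0% ± 1.32 with both drugs. TET2 went from 22.2% ± 1.78 to 49.7% ± 1.37 of the TET genes and TET1 from 9.63% ± 0.781 to 0.811% ± 0.0754. CDCA7 went from 60.9% ± 0.840 to 6.08% ± 1.81 of the summed TPM of CDCA7 and CDCA7L. With MANE Select lengths DNMT3A reached 46.4% of the DNMT genes with both drugs, against 1.31% in non-treated cells.

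**Figure D2:**
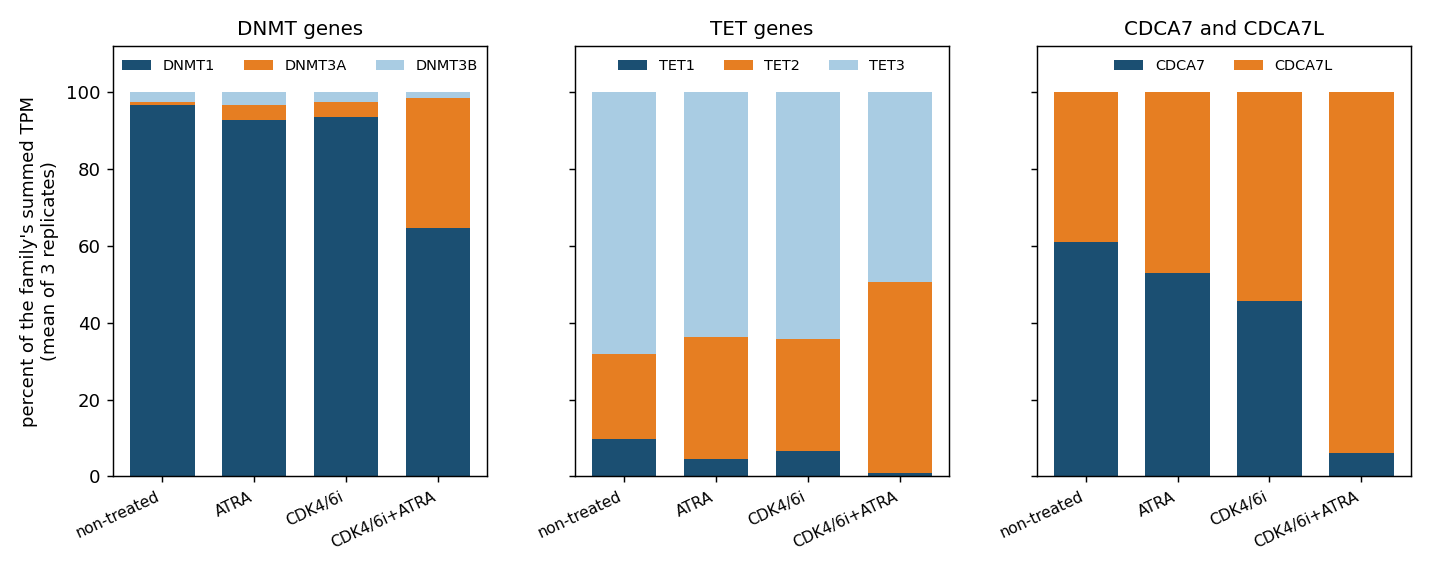
Percent of each family's summed TPM held by each gene, as the mean of 3 libraries per group. With CDK4/6i+ATRA the share of DNMT3A among the DNMT genes is 34.0%, that of TET2 among the TET genes 49.7% and that of CDCA7 against CDCA7L 6.08%.

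To contrast maintenance with the TET genes, the mean log2(CPM + 1) of TET1, TET2 and TET3 was subtracted from that of DNMT1, UHRF1, HELLS and CDCA7 in each library. The difference was 1.83, 1.91 and 1.77 in non-treated cells, 1.48, 1.48 and 1.43 under ATRA, -0.73, -0.62 and -0.53 under CDK4/6i, and -2.13, -2.22 and -2.30 under CDK4/6i+ATRA. The 4 groups did not overlap, with the non-treated libraries highest and those of CDK4/6i+ATRA lowest. CPM is not scaled by length, so the sign of the difference has no meaning of its own and only the change between groups is read. Group means were 1.84 ± 0.0745, 1.47 ± 0.0290, -0.62 ± 0.101 and -2.22 ± 0.0838 (SD, n = 3). The maintenance mean went from 7.50, 7.53 and 7.52 in non-treated cells to 3.00, 2.92 and 2.78 with both drugs, and the TET mean from 5.67, 5.62 and 5.75 to 5.14, 5.14 and 5.08, so both means fell, the maintenance mean further. The TET mean of log2 values weighs TET1 and TET2 alike, and the direction of a sum over the 3 TET genes depends on the scale. With both drugs against non-treated cells their summed TMM-normalized CPM was higher (254 to 261 against 199 to 226) and their summed TPM, to which no TMM factor is applied, lower (34.6 ± 2.38 against 40.7 ± 2.55, SD, n = 3). Because both sides were chosen with these values known, no p was computed.

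**Figure D3:**
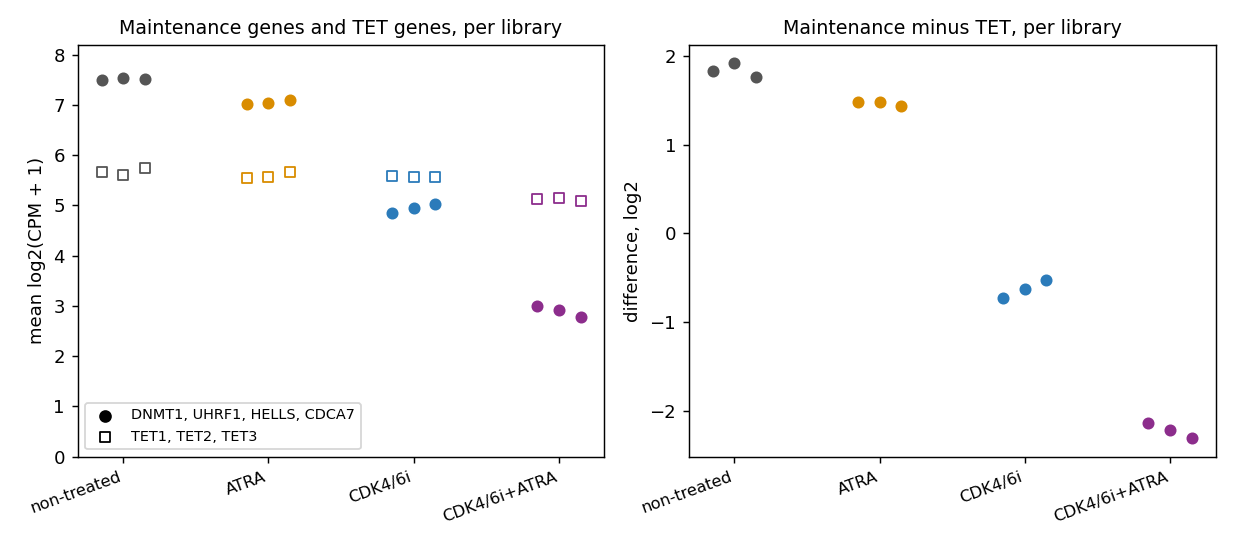
Left, mean log2(CPM + 1) of the maintenance genes (filled circles) and the TET genes (open squares) in each library, and right, their difference. The difference falls from 1.77 to 1.91 in non-treated libraries to between -2.30 and -2.13 with CDK4/6i+ATRA, and the TET mean stays between 5.08 and 5.75.

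ATRA alone against non-treated cells asks what the differentiating agent did by itself. It lowered the CDCA7 pair and TET1 and raised DNMT3A and TET2. The log2 fold changes were -1.35 ± 0.0439 for CDCA7, -0.88 ± 0.0480 for CDCA7L, -1.01 ± 0.107 for TET1, 2.17 ± 0.0859 for DNMT3A and 0.64 ± 0.0560 (SE) for TET2. DNMT1 (-0.27 ± 0.0410) and HELLS (-0.15 ± 0.0577) were also below the controls, the latter by an amount that did not pass the threshold under other scalings. UHRF1, DNMT3B and TET3 were not past the threshold. In all, 5 of the 10 genes were lower, against 35.5% of all tested genes, and 2 were higher, against 32.1%. Since these counts chose the genes, nothing is read from the comparison with the background.

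CDK4/6i alone against non-treated cells asks what inhibition of the G1 kinases did by itself. Every maintenance gene was lower, HELLS most (-4.00 ± 0.0875), followed by UHRF1 (-2.99 ± 0.0498), CDCA7 (-2.01 ± 0.0463) and DNMT1 (-1.62 ± 0.0439). At 213 counts of HELLS over the 3 CDK4/6i libraries, counting error alone exceeds its SE. CDCA7L (-1.12 ± 0.0488), DNMT3B (-1.60 ± 0.186), TET1 (-0.56 ± 0.101) and TET3 (-0.13 ± 0.0453) were lower too, although the TET3 libraries overlapped the controls. DNMT3A (0.78 ± 0.0996) and TET2 (0.33 ± 0.0572) were higher. Of the 10 genes 8 were lower, against 27.9% of tested genes, and 2 higher, against 28.3%, and nothing is read from these counts. The calls of TET3 were lost without any of 4 libraries, non-treated replicate 1 or 3 or CDK4/6i replicate 2 or 3, with log2 values of -0.12 to -0.09.

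Under CDK4/6i+ATRA, compared with the controls, the maintenance genes reached their lowest levels. The log2 fold changes were -7.86 ± 0.101 for CDCA7, -6.10 ± 0.130 for HELLS, -4.18 ± 0.0627 for UHRF1 and -2.51 ± 0.0497 for DNMT1. For CDCA7, HELLS and TET1, with 30, 32 and 53 counts over 3 libraries, the SE lies below counting error and understates the uncertainty. For UHRF1 (424 counts) and CDCA7L (443 counts) it lies slightly below. TET1 (-3.37 ± 0.162), CDCA7L (-3.29 ± 0.0675) and DNMT3B (-2.75 ± 0.244) were also far below the controls, and TET3 (-0.27 ± 0.0478) slightly. DNMT3A (3.51 ± 0.0797) and TET2 (1.35 ± 0.0555) were higher. Again 8 genes were lower, against 40.7% of tested genes, and 2 higher, against 41%, from which nothing is read. Library size in place of TMM lowered the median of all tested genes in this comparison from 0.02 to -0.25 and turned none of the 10 directions.

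Adding ATRA to CDK4/6i, and CDK4/6i to ATRA, separates what each drug did on top of the other. On top of CDK4/6i, ATRA lowered CDCA7 by a log2 value of -5.85 ± 0.129, TET1 by -2.81 ± 0.172, CDCA7L by -2.17 ± 0.0735, HELLS by -2.10 ± 0.229, UHRF1 by -1.18 ± 0.0818 and DNMT1 by -0.89 ± 0.0529, and raised DNMT3A by 2.73 ± 0.0722 and TET2 by 1.02 ± 0.0537. For CDCA7, HELLS and TET1 the SE lies below the error of counting alone and understates the uncertainty. DNMT3B (-1.15 ± 0.294) and TET3 (-0.15 ± 0.0480, not past the threshold without CDK4/6i replicate 1) were lower as well, which made 8 of 10 lower, against 39.5% of tested genes, and 2 higher, against 39.1%. On top of ATRA, CDK4/6i lowered CDCA7 by -6.51 ± 0.118, HELLS by -5.95 ± 0.132, UHRF1 by -4.10 ± 0.0629 and DNMT1 by -2.24 ± 0.04998, with DNMT3A 1.35 ± 0.0633 and TET2 0.71 ± 0.0526 higher. DNMT3B (-2.92 ± 0.239), CDCA7L (-2.40 ± 0.0721) and TET1 (-2.37 ± 0.182) were lower by more than DNMT1, and TET3 (-0.29 ± 0.0477) slightly. The SE of CDCA7, HELLS and TET1 was again below the error of counting alone, and that of UHRF1 and CDCA7L slightly. Here 8 of 10 were lower, against 32.8%, and 2 higher, against 36.9%. Nothing is read from either set of counts, and all of these comparisons share groups. By library size alone the genes called higher, among all those called, went from 49.8% to 36.7% on top of CDK4/6i and from 53.0% to 31.6% on top of ATRA.

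The interaction is the effect of ATRA in the presence of CDK4/6i minus its effect without, on the log2 scale, so that 0 means fold changes that multiply. CDCA7 departed furthest, at -4.49 ± 0.163, the 17th lowest of 13318 genes. The SEs of CDCA7, HELLS and TET1 lie below the error of counting alone and understate the uncertainty. A product of the single-drug ratios, 39.1% and 24.8%, would have left far more CDCA7 than the 0.43% measured. HELLS (-1.95 ± 0.240), TET1 (-1.81 ± 0.217), DNMT3B (-1.32 ± 0.333), CDCA7L (-1.28 ± 0.0911), UHRF1 (-1.11 ± 0.0917) and DNMT1 (-0.62 ± 0.0671) were also lower than the product, TET3 (-0.16 ± 0.0658) slightly so, and DNMT3A (0.56 ± 0.120) and TET2 (0.37 ± 0.0778) higher. The TET3 interaction was not past the threshold when any of 5 of the 12 libraries was left out. The 8 lower genes stand against 27% of tested genes and the 2 higher against 24.5%, and nothing is read from them. By library size alone, which moved the median interaction of all genes from -0.02 to -0.34, DNMT3A (0.24) and TET2 (0.06) kept their sign and were no longer past the threshold, and the genes called higher went from 47.5% to 18.5% of those called.

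**Figure D4:**
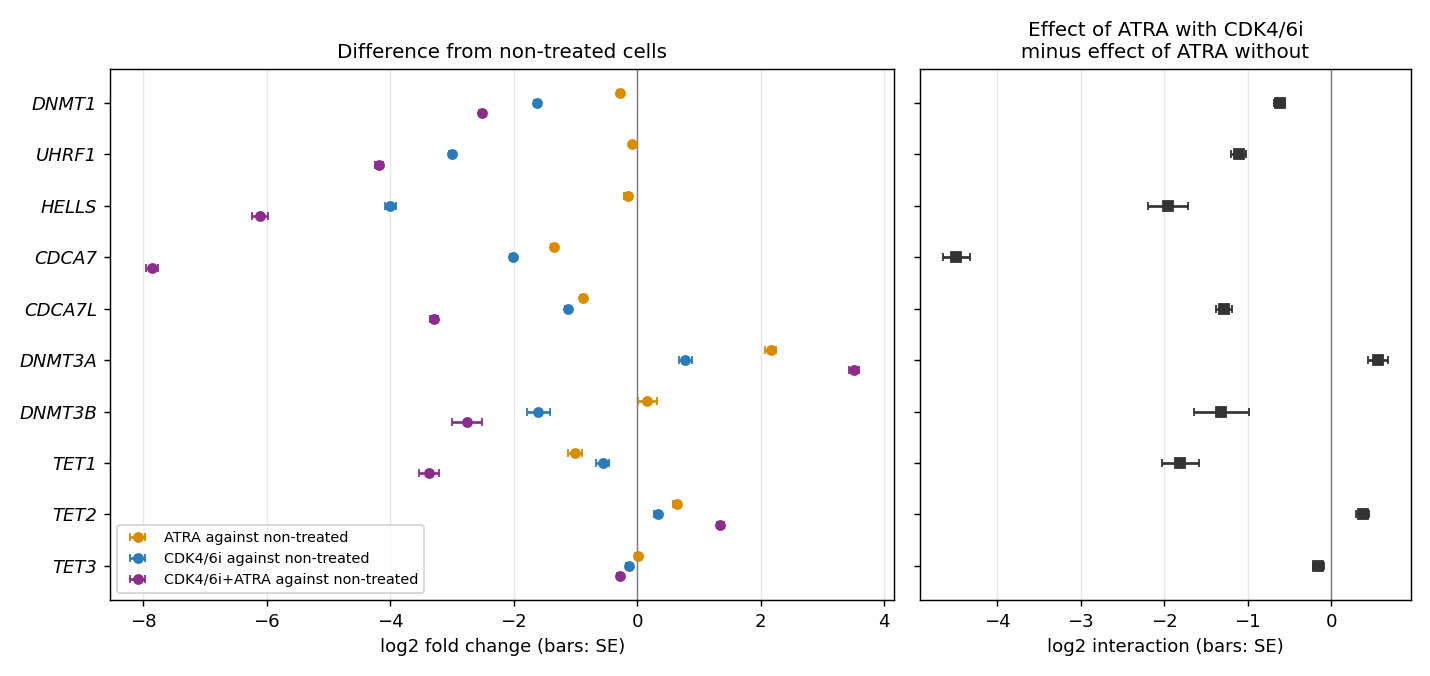
Left, log2 fold changes of the 10 genes of each treated group against the controls, and right, the interaction, all with SE bars. CDCA7 is furthest left in both, at -7.86 with both drugs and -4.49 for the interaction, while DNMT3A is furthest right at 3.51 and 0.56.

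Of 16 S phase markers, such as genes of the MCM helicase and of nucleotide synthesis, 16 were lower with CDK4/6i+ATRA than in non-treated cells, against 40.7% of tested genes, with a median of -4.74 on the log2 scale where all tested genes had 0.02. Under CDK4/6i alone 16 were lower, against 27.9%, and for the interaction 16, against 27%, with medians of -2.25 and -1.80. Under ATRA alone 13 were lower, against 35.5%, and 2 higher, against 32.1%, with a median of -0.48, and the higher ones were RRM2 (441 to 619 CPM) and CCNE2 (5.94 to 9.63 CPM). Their summed level was 4080.1 to 4289 CPM in non-treated, 3326 to 3473 in ATRA-treated, 929 to 962 in CDK4/6i-treated and 199 to 210.2 in CDK4/6i+ATRA-treated libraries. MCM7 was the most abundant, at 652 ± 18.3 CPM in non-treated cells and 24.9 ± 1.98 with both drugs (SD, n = 3), and none of the 16 was at 0 in any library. Their part in the levels of the maintenance genes was not tested. Of 6 markers of myeloid differentiation 5 were higher with CDK4/6i+ATRA than in non-treated cells, against 41% of tested genes, and FCGR1A was lower, at 7.31 CPM without drugs, 4.62 under ATRA, 9.48 under CDK4/6i and 1.80 with both. Between CDK4/6i+ATRA and ATRA alone, where DNMT3A and TET2 were higher, ITGAM (589.5 against 274 CPM) and CYBB (3017 against 2079 CPM) were higher, and CEBPE (285 against 409.7 CPM), NCF1 (1596 against 1738 CPM) and FCGR1A were lower. For the interaction 5 of the 6 were lower, against 27% of tested genes, with a median of -0.99. The summed level of the 6 was 352 to 369 CPM in non-treated, 4842 to 4979 in ATRA-treated, 771 to 806 in CDK4/6i-treated and 5792 to 6022 in CDK4/6i+ATRA-treated libraries, CYBB was the most abundant, 1 gene had no count in non-treated replicate 2 and in CDK4/6i replicate 3, and their part was not tested either.

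Outside the 10 genes, 64 genes of the pathway were followed in 6 lists, of which 58 passed the filter. EHMT2, DNMT3L, ZBTB38, SALL4, CXXC4 and GADD45G did not, and ZBTB38 and SALL4 were listed at 0 in every library, while EHMT2 is also listed on alternate contigs. Between CDK4/6i+ATRA and the controls 37 fell and 19 rose (edgeR's quasi-likelihood test, Benjamini-Hochberg adjusted), with a median log2 change of -0.77. That is 63.8% lower and 32.8% higher, where 40.7% and 41% of all tested genes were, the background for each list below. For ATRA alone 32 fell and 14 rose with a median of -0.30 (55.2% and 24.1%, against 35.5% and 32.1%), and for CDK4/6i alone 38 fell and 10 rose with a median of -0.24 (65.5% and 17.2%, against 27.9% and 28.3%). By library size alone, 39 fell and 9 rose with both drugs. Some changes of the genes named from these lists were small, such as a log2 value of 0.20 for OGT with both drugs. These 20 genes were selected among the largest rises and falls of their own list past the threshold in this comparison. Nothing is read from the fact that the 3 CDK4/6i+ATRA libraries of each did not overlap the 3 non-treated ones, nor from their largest adjusted p, 0.00586 for POLB.

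Of the maintenance partners, 7 fell and 2 rose of 9 that passed the filter, with a median of -1.53. LIG1, which seals Okazaki fragments, fell from 142 to 5.75 CPM (log2 -4.63 ± 0.0791, adjusted p = 1.01e-43 in edgeR), and PCNA, the replication clamp that holds DNMT1 at the fork, from 279 to 12.6 CPM (-4.46 ± 0.0597, adjusted p = 3.09e-48). At 197 counts of LIG1 and 432 of PCNA over the 3 CDK4/6i+ATRA libraries, counting error alone exceeds their SE. DMAP1, a DNMT1-associated protein, rose by 0.42 ± 0.0821, and HDAC1, a deacetylase of corepressor complexes, by 0.24 ± 0.0358, although by library size alone HDAC1 turned to -0.0261 and DMAP1, at 0.16, was no longer past the threshold. Of 7 genes listed as regulators of de novo methylation 6 fell and 1 rose, with a median of -0.37. This list includes TRDMT1, a tRNA methyltransferase, which was among those that fell (6.17 to 3.59 CPM). ZBTB24, which activates CDCA7 transcription and is mutated in the same immunodeficiency syndrome as CDCA7, HELLS and DNMT3B, fell by 1.27 ± 0.0943 (adjusted p = 3.20e-17, edgeR), and the CpG island protein KDM2B by 0.76 ± 0.0489. NSD1, a histone methyltransferase whose mark attracts DNMT3A, rose by 0.26 ± 0.0389 and was at -0.0086 by library size alone.

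In the methyl donor cycle 8 genes fell and 4 rose of 12, with a median of -1.10. SHMT1 fell from 30.3 to 1.29 CPM (-4.55 ± 0.143, adjusted p = 2.21e-32, edgeR) and MTHFD1 from 205 to 12.3 CPM (-4.06 ± 0.0718, adjusted p = 4.28e-43), both enzymes of folate one-carbon transfer. At 44 counts of SHMT1 over the 3 CDK4/6i+ATRA libraries, counting error alone exceeds its SE. SHMT1 is also listed on an alternate contig. AHCYL2, a relative of the hydrolase that clears S-adenosylhomocysteine, rose by 0.59 ± 0.0962. The readers of methylated CpG went against this trend, since 7 rose and 1 fell of 9 and their median was 0.64. MBD5 rose from 7.17 to 28.2 CPM (1.97 ± 0.108, adjusted p = 2.93e-22 in edgeR), whereas MBD3, a subunit of the NuRD complex, fell by 1.28 ± 0.0470.

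Of 8 TET cofactors and partners 6 fell and 2 rose, with a median of -1.08. WT1, a zinc finger factor that binds TET2 and TET3, fell from 68.6 to 4.78 CPM (-3.85 ± 0.103, adjusted p = 2.61e-35, edgeR), and was already at 10.3 CPM with ATRA alone. At 163 counts of WT1 over the 3 CDK4/6i+ATRA libraries, counting error alone exceeds its SE. IDH2, which makes the 2-oxoglutarate that TET enzymes consume, fell from 166 to 22.5 CPM (-2.88 ± 0.0565, adjusted p = 3.98e-41, edgeR). CXXC5, a CXXC-domain partner of TET2, rose by 0.77 ± 0.0607, and OGT, a glycosyltransferase bound to TET proteins, by 0.20 ± 0.0504 with -0.0690 by library size alone and 0.0860, not past the threshold, without a filter. Of 13 genes of base excision repair, which removes oxidized cytosine, 9 fell and 3 rose, with a median of -1.72. The glycosylase NEIL3 fell from 75.2 to 0.413 CPM, with 3 to 7 counts left per library (-7.49 ± 0.152, adjusted p = 1.66e-40, edgeR), and UNG, the uracil glycosylase, from 148 to 4.76 CPM (-4.96 ± 0.0903, adjusted p = 1.51e-42). At 14 counts of NEIL3 and 163 of UNG over the 3 CDK4/6i+ATRA libraries, counting error alone exceeds their SE. SMUG1, another uracil glycosylase, rose by 1.05 ± 0.110, and the repair polymerase POLB by 0.38 ± 0.128, which was no longer past the threshold by library size alone (0.12) or without a filter (0.28).

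**Figure D5:**
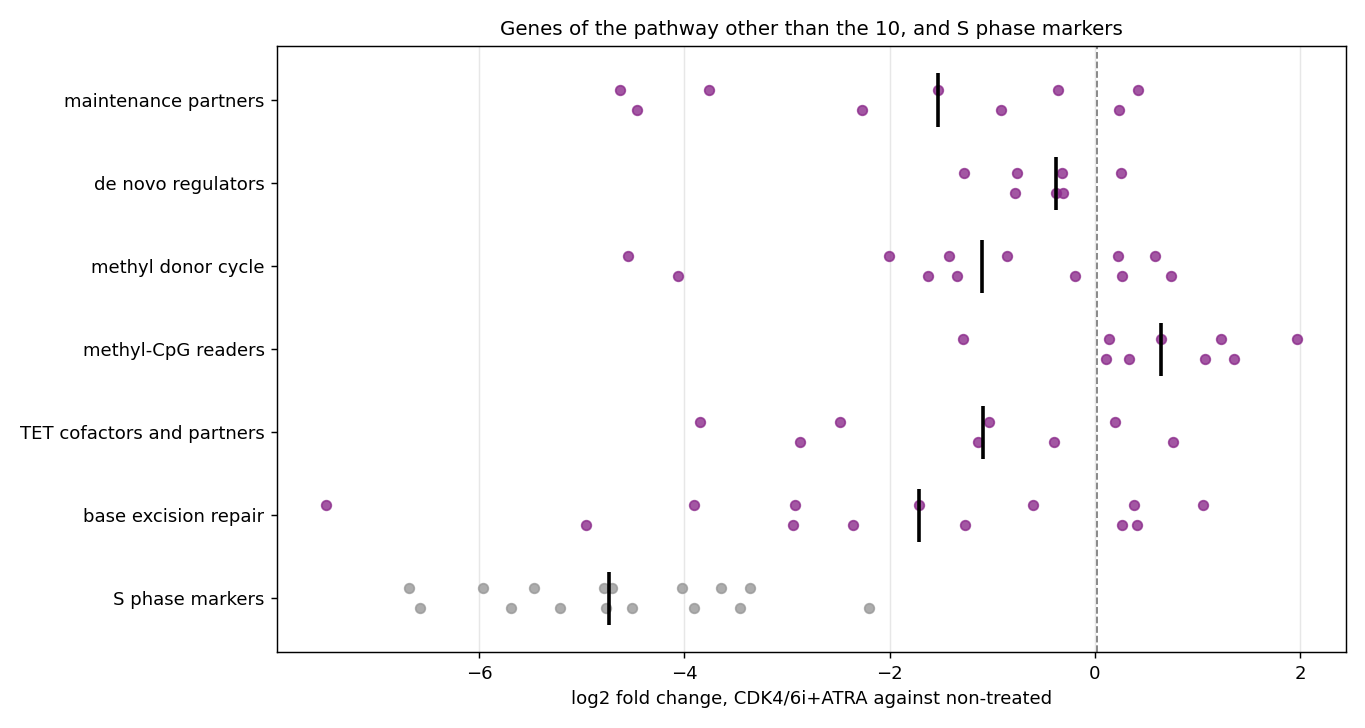
Log2 fold change of each pathway gene that passed the filter, both drugs against the controls, by list, with list medians (black bars), the S phase markers in grey and the median of all tested genes (0.02, dashed). Methyl-CpG readers have a median of 0.64, base excision repair one of -1.72 and S phase markers one of -4.74.

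Across the 12 libraries the 10 genes fell into patterns, described here by Pearson's r of log2(CPM + 1), with the 4 groups shared by all points and no test. UHRF1 and HELLS had an r of 0.999 with each other and 0.991 and 0.992 with DNMT1, and DNMT3B was close to them at 0.968 and 0.969. CDCA7 was nearer to CDCA7L (0.995) and TET1 (0.973) than to UHRF1 (0.857), and those genes were also low with ATRA alone. DNMT3A and TET2 had an r of 0.970 with each other, and TET1 was at -0.951 with DNMT3A and -0.974 with TET2. Among 9299 tested genes with a mean of at least 5 CPM, the nearest to DNMT1 were CHAF1A, CDCA4 and LIG1 (0.998 each), and to UHRF1 were HELLS (0.999), CLSPN (0.999) and SMC3 (0.998). NUP107, NDC1 and TRIP13 were nearest to CDCA7 (0.998 each), SUPT16H, JPT2 and PM20D2 to CDCA7L (0.999, 0.998 and 0.998), and TFE3, CD52 and TBCC to TET2 (0.995, 0.993 and 0.991). In all, 496 genes had an r over 0.95 with DNMT1 and 621 with CDCA7.

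Most germline genes that promoter methylation is known to silence in somatic cells were not detected. Of 12 such genes, among them DAZL, DDX4 and MAEL, 10 had 3 counts or fewer in every library and 9 of these had none, also in the libraries where CDCA7 and HELLS were lowest. Zeros are common in the table, in which 31154 of 59251 genes had no count. HORMAD1, the other of the 10, had no count in non-treated cells, 7 in the ATRA libraries together, 3 under CDK4/6i and 1 under CDK4/6i+ATRA. A count of 0 allows up to 3 counts, which is 0.161 to 0.245 CPM by library size. SYCE1 had 1 count in the non-treated libraries together, none under either drug alone, and 0, 1 and 5 counts under CDK4/6i+ATRA. SYCP3, the only germline gene that passed the filter, held 34 counts in the 3 non-treated libraries together, 26 under ATRA, 47 under CDK4/6i and 9 under CDK4/6i+ATRA.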

How the data were processed

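The authors trimmed the reads with Trimmomatic 0.33, aligned them with STAR 2.7.11a to hg38 and deposited raw counts per gene under the NCBI RefSeq annotation, without normalization. Their paper names RSEM for the counts, whereas the columns are those of featureCounts. Gene lengths were used as deposited by the authors, per the file headers. Libraries were made with NEBNext Ultra II Directional kits, and strand use in counting is not stated.

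Genes were filtered with filterByExpr and normalized by TMM (edgeR 4.0.16, R 4.3.3). The quasi-likelihood F test of edgeR, fitted to the 4 groups with 8 residual degrees of freedom gave 5 comparisons and the interaction, adjusted by Benjamini-Hochberg over 13318 genes at 0.05. The common coefficient of biological variation came to 3.70%. The members and the lists were chosen with earlier results of these data known, and the lists were compiled from general knowledge. The pathway genes named are those with the 2 largest rises and 2 largest falls of each list with CDK4/6i+ATRA against the controls, as far as a list held them, among those past the threshold whose mean was at least 5 CPM. Not every gene that this rule covers is reported here, and TDG is reported outside it. Alternatives were a pseudocount of 0.5, a fit of only the compared groups, a replicate block, leaving out each library, no filter or one of 10 counts in each library, scaling by library size, and DESeq2 1.42.0 or its size factors. MANE Select lengths, and leaving out libraries for the TPM shares, were added after seeing the data. The floor of 3 counts is 0.161 to 0.245 CPM. The tests were run on simulated counts first. Python 3.11.15 (numpy 2.4.6, pandas 2.3.3) and matplotlib 3.10.9 served for summaries and figures.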

Additional observations from a re-analysis of the deposited data

Results flagged for a closer look

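The effect of ATRA differed with and without CDK4/6i. For the 10 genes, whose values chose them and are a description, the difference on the log2 scale was -0.62 for DNMT1, -1.11 for UHRF1, -1.95 for HELLS, -4.49 for CDCA7, -1.28 for CDCA7L, 0.56 for DNMT3A, -1.32 for DNMT3B, -1.81 for TET1, 0.37 for TET2 and -0.16 for TET3. Among pathway genes (adjusted p under 0.05 in edgeR) it was -1.35 for LIG1, -1.13 for PCNA, 0.26 for NSD1, 0.40 for KDM2B, -3.10 for SHMT1, -1.96 for MTHFD1, 1.296 for CXXC5, -0.75 for WT1, -1.74 for IDH2, 0.38 for SMUG1, -5.34 for NEIL3 and -1.55 for UNG. Several of these were no longer past the threshold under other settings. By library size alone these were DNMT3A (0.24), TET2 (0.0572), KDM2B (0.0766) and SMUG1 (0.0601), and NSD1 turned to -0.0534. SMUG1 was also not past it without a filter (0.29), in DESeq2 (0.36) and without any of 7 of the 12 libraries, and TET3 without any of 5 of the 12. The cause was not tested.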

How the results depend on the processing

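Total numbers of genes past the threshold, both directions together, moved by less than 1.5 times under each alternative counted, but numbers by direction moved more, and the cause was not tested. Over all tested genes, no total was counted with a library left out, nor for the interaction with only the groups compared. By library size alone the pathway genes called higher went from 19 to 9 for CDK4/6i+ATRA against the controls, 17 to 11 against CDK4/6i, 18 to 6 against ATRA and 14 to 4 for the interaction, and the 10 genes called higher for the interaction from 2 to 0. Of all tested genes those called higher went from 4920 to 2956 against ATRA and from 3258 to 1375 for the interaction. Those called lower went from 4371 to 6412 against ATRA and from 3594 to 6061 for the interaction. With each library left out, 6 to 7 of the 10 genes were past it for ATRA alone and 9 to 10 in the other comparisons, and with at least 10 counts in every library 7 of the 10 genes were left, 5 of them lower where 8 had been and 3 where 5 had been for ATRA alone. Of the pathway genes 55 to 57 were past it for CDK4/6i+ATRA against the controls with a library left out, and 48 to 57 under other settings. Small log2 changes turned their direction. For ATRA alone, leaving out libraries gave -0.0022 to 0.32 for DNMT3B, -0.0496 to 0.0515 for TET3, -0.0144 to 0.20 for AHCYL2, -0.0038 to 0.0485 for OGT and -0.0944 to 0.11 for POLB. TET3 was at -0.0022 without a filter, and POLB went from -0.01 to 0.0218 with DESeq2's size factors, 0.0303 by library size, 0.0160 with at least 10 counts, 0.0195 in DESeq2 and 0.0396 with only the groups compared. For CDK4/6i alone SMUG1 ranged from -0.0596 to 0.0801. By library size alone, CDK4/6i+ATRA against the controls gave -0.0261 for HDAC1, -0.0086 for NSD1 and -0.0690 for OGT. Against CDK4/6i it gave -0.0789 for HDAC1, -0.0959 for AHCYL2, -0.12 for OGT and -0.23 for POLB (-0.0532 without a filter, and -0.0201 to 0.105 with libraries left out), and against ATRA -0.0514 for DMAP1, -0.13 for NSD1 and -0.13 for OGT. The interaction became -0.15 for DMAP1, -0.0534 for NSD1, -0.25 for AHCYL2 (-0.0188 without a filter, -0.0277 to 0.187 with libraries left out), -0.18 for OGT and -0.26 for POLB (-0.0282 without a filter, -0.0705 to 0.134 with libraries left out). The maintenance minus TET difference between CDK4/6i+ATRA and the controls was -4.05, with -4.10 to -4.01 when libraries were left out and -4.20 with a pseudocount of 0.5. MANE Select lengths, chosen after seeing the data, put the share of DNMT1 at 96.0% in non-treated and 52.4% in CDK4/6i+ATRA-treated cells, DNMT3A at 1.31% and 46.4% of the DNMT genes and at 33.5% and 97.4% of the de novo pair, TET1 at 8.73% and 0.667%, TET2 at 28.5% and 58.0%, CDCA7 at 62.7% in non-treated cells and HELLS at 28.04% of CDCA7.

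With the replicate block, 10824 genes in place of 10885 were past the threshold for CDK4/6i+ATRA against the controls, and 6775 in place of 6852 for the interaction. Of 18 same-numbered pairs 0 had an r over 0.1 (-0.114 to 0.0702), so the numbers were not read as pairs.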

Other observations

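The line is a single one, measured once at 48 h, with 3 libraries per group. RNA does not give the amount or activity of an enzyme. The listed gene length covers every annotated exon, so levels between genes depend on which transcripts were present. HELLS and CDCA7 held 7 to 14 counts per library with CDK4/6i+ATRA, where counting error is large and exceeds the SE given for them. A smaller share of cells in S phase, differentiation and a direct effect of either drug on these genes cannot be told apart in these data.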
